A study of Homo sapiens with 6 samples.

Results

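The MHC class I and peptide loading genes were followed in NB4 cells with and without overexpression of CD69. They are 9 of the 61806 genes in the table, chosen by their symbols: the heavy chains HLA-B, HLA-C, HLA-E and HLA-F, the light chain B2M, the transporter subunits TAP1 and TAP2, the loading factor TAPBP, and the regulator NLRC5. NB4 is an established cell line from acute promyelocytic leukaemia, in which granulocyte precursors stop maturing. The CD69-overexpressing group is 3 libraries of NB4 cells transduced with a lentivirus to express CD69 stably, and the control group is 3 libraries of NB4 cells with the vector alone, whose genotype the labels give as wild-type. CD69 is an early activation marker of lymphocytes and other leukocytes. All 6 libraries carry the same batch label, and the cells were in logarithmic growth with no drug. The study's question was which transcripts differ with CD69 overexpression, measured by sequencing of poly(A) RNA. Separate transductions are not mentioned in the labels or the design text, so p-values cover only the spread between these libraries.

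Class I molecules carry peptides from inside the cell to its surface, where T cells read them. A heavy chain folds with beta-2-microglobulin (B2M) in the endoplasmic reticulum, and the proteasome supplies peptides that the TAP transporter pumps in. Tapasin (TAPBP) holds the empty heavy chain beside the transporter until a peptide fits, and NLRC5 switches on the class I promoters in the nucleus. Loss of class I from the surface is a known route by which leukaemia cells escape T cells, and natural killer cells in turn sense cells that lack it.

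Libraries held between 51543550 and 57463020 counts. CD69 itself was at 98.3, 99.1 and 95.7 CPM in the overexpressing libraries, against 80.4, 81.9 and 70.6 CPM in the controls (CPM are counts relative to library size, here after TMM scaling, a correction for library composition). The groups did not overlap, and the log2 fold change was 0.33 (SE 0.07), with an adjusted p of 0.0153 in edgeR's quasi-likelihood test after Benjamini-Hochberg adjustment, and of 0.0618 without overexpressing replicate 2. The CD69 call was also lost in edgeR's glmTreat, which asks for more than a 1.2-fold change (adjusted p = 0.260), and where overexpressing replicate 1 stood alone for its group (adjusted p = 0.213). Of the markers of promyelocytes, ELANE, PRTN3, AZU1, CTSG and MYB were each above 100 CPM in every library, while MPO lay between 0.52 and 1.45 CPM. Of the 8 promyelocyte markers 3 were higher, and their sum was 2558 to 2919 CPM in the overexpressing libraries, against 1456 to 1618 CPM in the controls. Overexpressing replicate 1 stood apart from replicates 2 and 3, at 32.4 on the first principal component where these lay at 74.8 and 74.3, and the controls from -61.7 to -59.5. Of 7 tested B cell markers 4 were higher, and the sum of the list was 21.9, 90.4 and 87.5 CPM in the overexpressing libraries, against 18.8, 15.5 and 13.6 CPM in the controls. The sum of T and NK cell markers was 99.7 to 119 CPM in the overexpressing libraries, against 54.6 to 73.5 CPM in the controls, nearly all of it NKG7, with CD3E and CD3G at 0. Dendritic markers summed to under 1 CPM in each library, with CLEC9A and CLEC10A at 0. Monocyte markers summed to 11.1 to 29.9 CPM in the overexpressing libraries, against 23.7 to 26.1 CPM in the controls, and fibroblast and epithelial markers to 27.9 to 108 CPM, against 106 to 119 CPM.

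The main heavy chains and the light chain moved in opposite directions. HLA-B, HLA-C, HLA-E, TAP1 and NLRC5 were higher in the CD69-overexpressing cells, B2M and TAP2 were lower, and TAPBP and HLA-F did not pass the test. All 9 genes passed the filter on low counts. The 5 genes called higher compare with 14.2% of the 19485 tested genes called higher, and the 2 called lower with 9.94% called lower (adjusted p under 0.05). Together the 7 called genes compare with 24.1% of all tested genes, and with 33.1% of those of at least 5 CPM. The median log2 fold change was 0.42 over the 9 genes and 0.01 over all tested genes. In bulk RNA, fewer cells of a type and less RNA per cell cannot be told apart.

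HLA-C, a classical heavy chain that also serves as a ligand of killer cell receptors, showed the largest difference of the 9. The gene (ENSG00000204525, GRCh38 chr6:31268749-31272130, minus strand) was at 423, 424 and 495 CPM in the overexpressing libraries, against 171, 181 and 215 CPM in the controls. The lowest overexpressing library was well above the highest control. The log2 fold change was 1.24 (SE 0.11; edgeR quasi-likelihood test, adjusted p = 0.000202), a 2.37-fold rise. It was called under all 18 alternatives, between 1.16 and 1.35.

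HLA-B, the neighbouring classical heavy chain (ENSG00000234745, chr6:31269491-31357188, minus strand), was at 366, 351 and 420.3 CPM in the overexpressing libraries, against 222, 224 and 270.4 CPM in the controls. The groups did not overlap, and in both the third library was the highest. HLA-B averaged 379 ± 36.5 CPM in overexpressing cells and 239 ± 27.6 CPM in controls (SD, n = 3 each). Its log2 fold change was 0.67 (SE 0.10; edgeR quasi-likelihood test, adjusted p = 0.00315), smaller than that of HLA-C. The annotated exons of HLA-B and HLA-C share 35 bases, and 542 bases of HLA-B exon lie opposite AL671883.2. Heavy chain genes resemble each other, so part of their counts is uncertain. Of the 50-base windows in their reference transcripts, 2.12% for HLA-B and 6.17% for HLA-C occur in another gene too. None of the windows of 150 bases, the read length, does so. These are exact matches between reference transcripts. The alleles of the NB4 cells were not examined, so the windows do not show how reads were assigned.

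HLA-E presents leader peptides of other class I chains to CD94/NKG2 receptors of natural killer cells. The gene (ENSG00000204592, chr6:30489467-30494205, plus strand) was at 207, 202 and 209.7 CPM in the overexpressing libraries, against 128, 128 and 136 CPM in the controls. Libraries within each group lay close together. The log2 fold change was 0.66 (SE 0.06; edgeR quasi-likelihood test, adjusted p = 0.000259), close to that of HLA-B.

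HLA-F, a nonclassical heavy chain, was barely expressed (ENSG00000204642, chr6:29722775-29738528, plus strand). It was at 2.37, 1.19 and 1.33 CPM in the overexpressing libraries, against 1.37, 1.32 and 1.03 CPM in the controls. Overexpressing replicate 1 was the high library, and the other 2 lay among the controls. The log2 fold change of 0.39 (SE 0.33; 95% interval -0.37 to 1.15) did not pass the test (edgeR quasi-likelihood test, adjusted p = 0.433). Without overexpressing replicate 1 it was 0.01. Exons of HLA-F overlap genes of the other strand over 1236 bases, and whether counting used strand is not given in the sources used here.

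B2M, the light chain that every class I heavy chain needs, fell. The gene (ENSG00000166710, chr15:44711487-44718877, plus strand) was at 1120.0, 1122 and 1261 CPM in the overexpressing libraries, against 1466, 1499.7 and 1594 CPM in the controls. Every overexpressing library lay below every control. The log2 fold change was -0.38 (SE 0.07; edgeR quasi-likelihood test, adjusted p = 0.00671), so B2M fell by 23.2%. Tested against a fold of 1.2 in place of no change, the call was lost (adjusted p = 0.111).

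**Figure D1:**
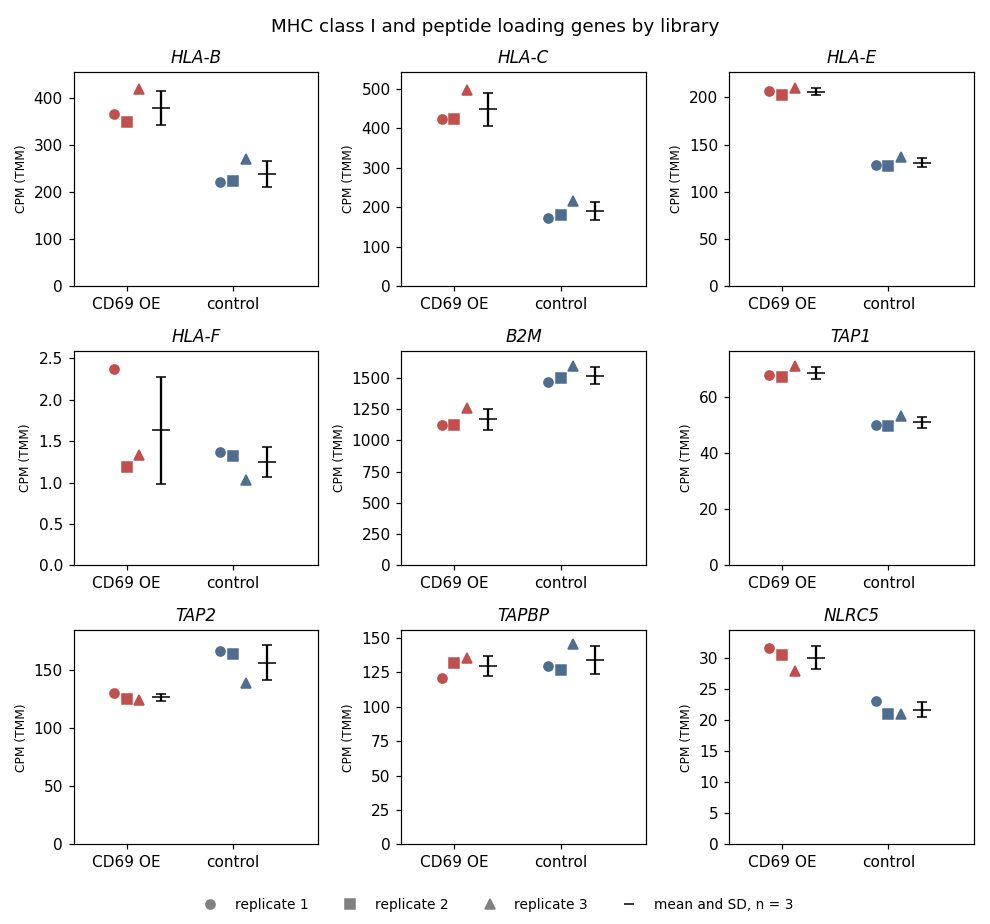
CPM of each gene (vertical axes, from 0) in the CD69-overexpressing libraries, left, and the controls, right, with 1 symbol per replicate and the mean and SD of 3 libraries as a bar. HLA-B, HLA-C, HLA-E, TAP1 and NLRC5 sit above their controls without overlap, B2M and TAP2 below, while HLA-F and TAPBP overlap.

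Taken per kilobase of transcript, B2M was the most abundant of the 9 in both groups, at 838 ± 57.8 CPM per kb in overexpressing cells and 1091 ± 47.5 CPM per kb in controls (SD, n = 3 each). In overexpressing cells HLA-C (291 ± 27.0), HLA-B (245 ± 23.6), HLA-E (79.3 ± 1.46) and TAPBP (68.5 ± 3.87 CPM per kb) followed. In controls the order was HLA-B (154 ± 17.8), HLA-C (123 ± 14.9), TAPBP (71.0 ± 5.34) and HLA-E (50.3 ± 1.91 CPM per kb). HLA-C thus stood above HLA-B in each overexpressing library and below it in each control. The ratio of HLA-C to HLA-B per kb was 1.16, 1.22 and 1.19 in the overexpressing libraries, against 0.779, 0.815 and 0.801 in the controls. Below these came TAP2 and TAP1, then NLRC5 at 4.47 ± 0.282 CPM per kb in overexpressing cells and 3.23 ± 0.180 CPM per kb in controls, and last HLA-F at 1.15 ± 0.458 and 0.880 ± 0.129 CPM per kb. The order depends on the transcript lengths used, the medians of the coding transcripts of each gene.

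HLA-B, HLA-C and HLA-E rose while B2M fell, so their balance within a library differed more than either did. A ratio within a library does not depend on how libraries were scaled. The 4 heavy chains together reached 0.738, 0.722 and 0.747 of B2M per kb in the overexpressing libraries, against 0.290, 0.290 and 0.322 in the controls. The groups were far apart beside the spread within each. The mean ratio was 2.45-fold higher in overexpressing cells, and B2M alone stayed above the 4 heavy chains together, per kb, in every library. Singly, HLA-C relative to B2M was 3.08-fold higher, HLA-B 2.07-fold and HLA-E 2.06-fold.

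**Figure D2:**
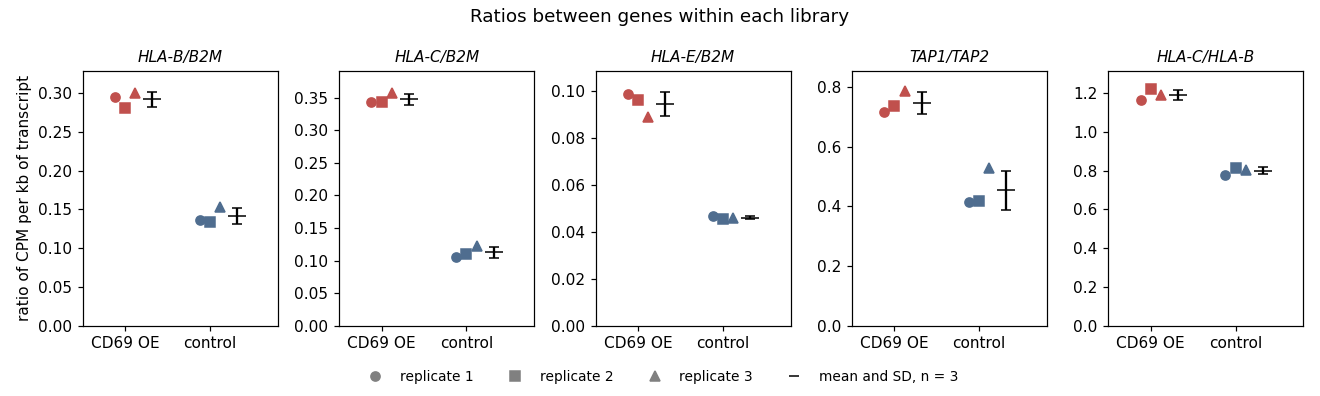
Ratio of CPM per kb between genes within a library (vertical axes, from 0), with the CD69-overexpressing libraries left of the controls, 1 symbol per replicate and the mean and SD of 3. Each ratio is higher in all 3 overexpressing libraries, and the ratio of HLA-C to HLA-B is above 1 in those 3 and below 1 in the controls.

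The subunits of the peptide transporter, which work only as a pair, moved apart. TAP1 (ENSG00000168394, chr6:32845209-32853978, minus strand) was at 67.5, 66.9 and 70.8 CPM in the overexpressing libraries, against 50.1, 49.6 and 53.2 CPM in the controls. Its log2 fold change was 0.42 (SE 0.07; edgeR quasi-likelihood test, adjusted p = 0.00300), with no overlap of the groups. TAP2 (ENSG00000204267, chr6:32821833-32838780, minus strand) was at 130.2, 125 and 124 CPM in the overexpressing libraries, against 167, 164 and 139 CPM in the controls. All overexpressing libraries were below the controls, of which replicate 3 was the lowest.

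TAP2 fell by 0.31 on the log2 scale (SE 0.08; edgeR quasi-likelihood test, adjusted p = 0.0297), and this call was the least stable of the 7. It was lost without overexpressing replicate 1, 2 or 3 and without control replicate 1 or 2 (adjusted p between 0.0524 and 0.104). TAP2 also shares 2064 bases of exon on its own strand with AL669918.1, and 31.0% of its 150-base windows occur in another gene too. The ratio of TAP1 to TAP2 per kb was 0.716, 0.737 and 0.787 in the overexpressing libraries, against 0.415, 0.419 and 0.527 in the controls, 1.65-fold higher.

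TAPBP (ENSG00000231925, chr6:33299694-33314387, minus strand) was at 121, 131 and 135 CPM in the overexpressing libraries, against 129, 127 and 146 CPM in the controls. The groups overlapped. Its log2 fold change was -0.05 (SE 0.08; 95% interval -0.23 to 0.13; edgeR quasi-likelihood test, adjusted p = 0.684). The interval leaves out changes as large as that of HLA-E in either direction. Relative to TAP1 per kb, TAPBP was at 2.81, 3.08 and 3.00 in the overexpressing libraries, against 4.05, 4.01 and 4.29 in the controls.

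NLRC5, the transactivator of class I promoters, rose. The gene (ENSG00000140853, chr16:56989485-57083531, plus strand) was at 31.7, 30.6 and 28.0 CPM in the overexpressing libraries, against 23.1, 21.0 and 21.0 CPM in the controls. The groups did not overlap, and the log2 fold change was 0.47 (SE 0.09; edgeR quasi-likelihood test, adjusted p = 0.00678). It was called under every alternative except overexpressing replicate 1 alone.

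**Figure D3:**
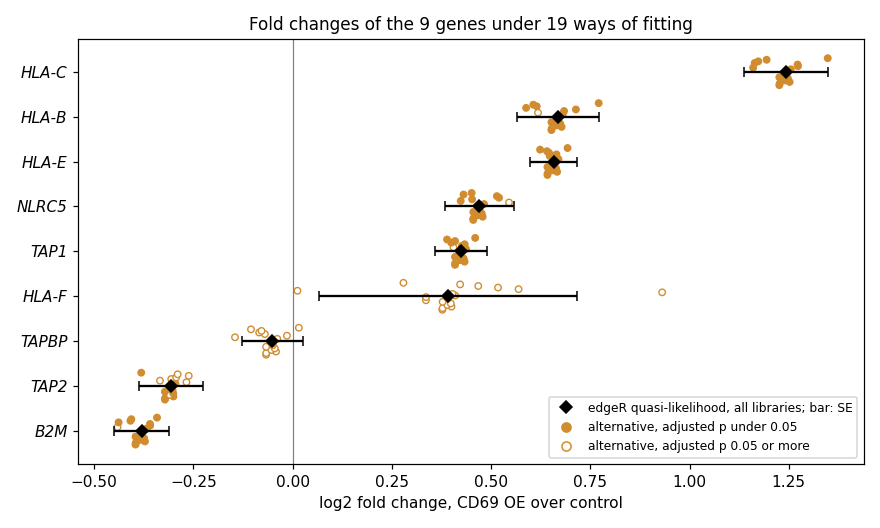
Log2 fold change of each gene, CD69 overexpression over control (horizontal axis). The diamond and bar give the edgeR value and its SE over all 6 libraries; circles are the 18 alternative fits, filled where the adjusted p was under 0.05. HLA-C stays between 1.16 and 1.35, while the circles of HLA-F run from 0.01 to 0.93 and most of those of TAP2 lie near -0.31.

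Over the 9 genes, 5 had all overexpressing libraries above all controls and 2 had all below, where 23% and 19.3% of all tested genes did so and 42.3% did either. Overexpressing replicate 1, set alone against the 3 controls, gave log2 fold changes of 1.16 for HLA-C, 0.62 for HLA-B, 0.66 for HLA-E, 0.41 for TAP1, 0.55 for NLRC5, -0.44 for B2M and -0.27 for TAP2. In that smaller comparison 2 genes were called higher, HLA-C and HLA-E, and 0 lower, where 797 genes were called higher and 380 lower over all genes. Without replicate 1 the same 5 genes were called higher and B2M alone lower. Replicate 1 had a B cell marker sum of 21.9 CPM, where the controls had 13.6 to 18.8 CPM and overexpressing replicates 2 and 3 had 90.4 and 87.5 CPM. HLA-C was at 423 CPM in replicate 1 and at 424 and 495 CPM in replicates 2 and 3. B2M was at 1120.0 CPM in replicate 1 and at 1122 and 1261 CPM in replicates 2 and 3. The markers MS4A1 and CD79B were at 0.91 and 0.50 CPM in replicate 1, against 0.46 to 2.59 and 0.64 to 1.00 CPM in the controls. The part of B cell transcripts in the class I values was not tested.

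The class I promoters carry a conserved block of short motifs. The block is shown here for HLA-B and HLA-C, which rose, and HLA-F, which did not pass the test. Its marked parts are known binding places of most of the factors tested next. The lines give part of the 250 bases before the RefSeq start, which can differ from that of the gene positions above, of HLA-B (chr6:31357227-31357360, minus strand), HLA-C (chr6:31272140-31272288, minus strand) and HLA-F (chr6:29723274-29723385, plus strand), written 5′ to 3′ from RefSeq, build GRCh38.p14. Capitals mark every match, on either strand, to the NF-kB consensus, to the interferon regulatory factor motifs GAAANNGAAA and GAANNGAAA, to the cyclic AMP response type TGACG, and to the CCAAT box.
HLA-B: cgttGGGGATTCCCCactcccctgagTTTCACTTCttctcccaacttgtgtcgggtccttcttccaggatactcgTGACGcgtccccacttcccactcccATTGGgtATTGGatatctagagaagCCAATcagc
HLA-C: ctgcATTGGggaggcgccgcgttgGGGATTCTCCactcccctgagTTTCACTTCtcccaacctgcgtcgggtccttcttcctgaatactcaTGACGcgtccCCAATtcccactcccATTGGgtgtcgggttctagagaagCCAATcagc
HLA-F: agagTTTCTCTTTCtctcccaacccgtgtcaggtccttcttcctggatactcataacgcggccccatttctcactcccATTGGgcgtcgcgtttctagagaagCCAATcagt
In both HLA-B and HLA-C an NF-kB match is followed by GAANNGAAA, read here as TTTCNNTTC from the other strand, then by TGACG and CCAAT. HLA-F, the gene at 1.03 to 2.37 CPM, has GAAANNGAAA and CCAAT matches but neither TGACG nor the NF-kB consensus in its window.

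The other genes with a RefSeq promoter have a GAAANNGAAA match, and the stretch around it is shown to set beside the heavy chains. They are B2M (chr15:44711361-44711400, plus strand), TAP1 (chr6:32853811-32853850, minus strand), TAP2 (chr6:32838776-32838809, minus strand) and TAPBP (chr6:33314079-33314110, minus strand), again from build GRCh38.p14, with capitals on the GAAANNGAAA matches.
B2M: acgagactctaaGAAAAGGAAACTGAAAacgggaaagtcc
TAP1: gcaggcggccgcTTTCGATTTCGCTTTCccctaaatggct
TAP2: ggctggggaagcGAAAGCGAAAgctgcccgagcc
TAPBP: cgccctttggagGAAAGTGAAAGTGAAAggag
GAAANNGAAA was in 5 of the 7 genes with a promoter (HLA-F, B2M, TAP1, TAP2 and TAPBP) and in 3.02% of the 35116 RefSeq promoters. GAANNGAAA was in 3 (HLA-B, HLA-C and TAP2), against 6.56% of all, and the NF-kB consensus in 5, against 5.21%. CCAAT was in 5, against 32%, and TGACG in 4, against 21.2%. The genes with a GAAANNGAAA match include 1 called higher, 2 called lower and 2 not called. A match describes the letters only. No RefSeq promoter was used for HLA-E and NLRC5.

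Factors that act on class I promoters were examined next. Most act on the motifs above, but no motif was marked for RFX5, RFXAP and RFXANK. Of the 15 genes listed, 3 were higher, 0 lower and 12 not called (median log2 fold change -0.06). In tested genes of at least 5 CPM, 17.9% were higher and 15.2% lower. NFYA, a subunit of the factor that binds CCAAT boxes, rose by 0.89 on the log2 scale (SE 0.09; edgeR quasi-likelihood test, adjusted p = 0.000450). It was at 166, 166 and 150.4 CPM in the overexpressing libraries, against 92.8, 90.6 and 76.3 CPM in the controls. Its partner subunits NFYB and NFYC had log2 fold changes of 0.06 and -0.22 and did not pass (adjusted p = 0.610 and 0.0728). IRF2, an interferon regulatory factor, rose by 0.53 (SE 0.12; adjusted p = 0.0146). STAT2, part of the type I interferon signal, rose by 0.38 (SE 0.11; adjusted p = 0.0366). That call was lost without overexpressing replicate 1 or 2 or any 1 of the controls (adjusted p between 0.0635 and 0.133). RFX5, which binds the class I and class II promoters with NLRC5 or CIITA, had a log2 fold change of 0.19 and IRF1 of -0.35, neither of them past the test.

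Of 18 interferon-stimulated genes, 2 were higher, 2 lower and 14 not called, and the median log2 fold change was -0.31. Over all tested genes 14.2% were called higher and 9.94% lower, so these counts are near the background. OAS2, an RNA sensor, rose by 2.08 (SE 0.38; edgeR quasi-likelihood test, adjusted p = 0.00613), at 3.14, 4.36 and 2.92 CPM in the overexpressing libraries, against 0.518, 1.29 and 0.660 CPM in the controls. IFIT1, which binds foreign RNA, rose by 0.67 (adjusted p = 0.0264, and between 0.0520 and 0.0968 without any 1 library other than control replicate 2). IFI6 fell by 0.53 (adjusted p = 0.0104, and 0.0559 without overexpressing replicate 2). The guanylate-binding protein gene GBP5 fell by 0.81 (adjusted p = 0.0230, and between 0.0636 and 0.0819 without overexpressing replicate 2 or control replicate 1 or 2).

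Among 8 interferon receptor and kinase genes, 1 was higher and 1 lower, with a median log2 fold change of -0.18. The shares over all tested genes were 14.2% higher and 9.94% lower. JAK2 rose by 0.42 (SE 0.12; edgeR quasi-likelihood test, adjusted p = 0.0434), and IFNGR1, a chain of the interferon gamma receptor, fell by 0.25 (SE 0.07; adjusted p = 0.0431). Both calls were lost without 1 library in 5 of the 6 cases, with an adjusted p of up to 0.154 for JAK2 and 0.149 for IFNGR1. JAK2 stayed called only without overexpressing replicate 3, and IFNGR1 only without control replicate 3.

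The proteasome supplies the peptides. Of 5 immunoproteasome genes 1 was higher and 0 lower, where 17.9% and 15.2% of tested genes of at least 5 CPM were. PSMB9, a catalytic subunit whose gene lies beside TAP1, was at 24.9, 24.2 and 29.6 CPM in the overexpressing libraries, against 15.9, 15.2 and 22.4 CPM in the controls. Its log2 fold change was 0.56 (SE 0.17; edgeR quasi-likelihood test, adjusted p = 0.0450, and between 0.0797 and 0.163 without any 1 library other than control replicate 3). PSMB8, its partner subunit beside TAP2, had a log2 fold change of 0.07 (adjusted p = 0.664).

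Of 15 genes of the constitutive proteasome and its activators, 0 were higher and 4 lower, with a median log2 fold change of -0.16. In tested genes of at least 5 CPM, 17.9% were higher and 15.2% lower. PSMB5, the catalytic subunit that PSMB8 replaces, fell by 0.47 (SE 0.10; edgeR quasi-likelihood test, adjusted p = 0.0115, and 0.0589 without overexpressing replicate 2). The activator PSME3 fell by 0.37 (SE 0.06; adjusted p = 0.00338) and the subunit PSMB2 by 0.31 (adjusted p = 0.0118, but 0.0532 without overexpressing replicate 1 and 0.0698 without replicate 2). PSMB1 fell by 0.35 (adjusted p = 0.0406, and between 0.0691 and 0.153 without any 1 library other than overexpressing replicate 3).

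Peptides are trimmed before loading, and of 9 trimming genes 1 was higher, 1 lower and 7 not called. The shares over all tested genes were 14.2% higher and 9.94% lower. The aminopeptidase LAP3 was at 67.9, 72.2 and 70.9 CPM in the overexpressing libraries, against 97.5, 92.4 and 98.7 CPM in the controls. It fell by 0.45 on the log2 scale (SE 0.06; edgeR quasi-likelihood test, adjusted p = 0.00184). LNPEP, which trims peptides in endosomes, rose by 0.38 (adjusted p = 0.0144, and 0.0635 without overexpressing replicate 2). ERAP1, the main trimming enzyme of the endoplasmic reticulum, had a log2 fold change of 0.36 (SE 0.12; adjusted p = 0.0641) and did not pass.

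Of 6 chaperones of the loading complex, 1 was higher and 1 lower, where 17.9% and 15.2% of tested genes of at least 5 CPM were. PDIA3, the disulfide isomerase bound to tapasin, was at 679, 664 and 728 CPM in the overexpressing libraries, against 1031, 1019.5 and 1088 CPM in the controls. It fell by 0.60 on the log2 scale (SE 0.06; edgeR quasi-likelihood test, adjusted p = 0.000512), without overlap. UGGT1, which sends misfolded glycoproteins back for another round of folding, was at 172, 178 and 149 CPM in the overexpressing libraries, against 97.5, 96.5 and 82.5 CPM in the controls, and rose by 0.85 (SE 0.10; adjusted p = 0.000773). Calreticulin (CALR) had a log2 fold change of -0.24 (adjusted p = 0.0505) and the tapasin relative TAPBPL of 0.40 (adjusted p = 0.0645), on either side of 0 and short of the threshold.

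**Figure D4:**
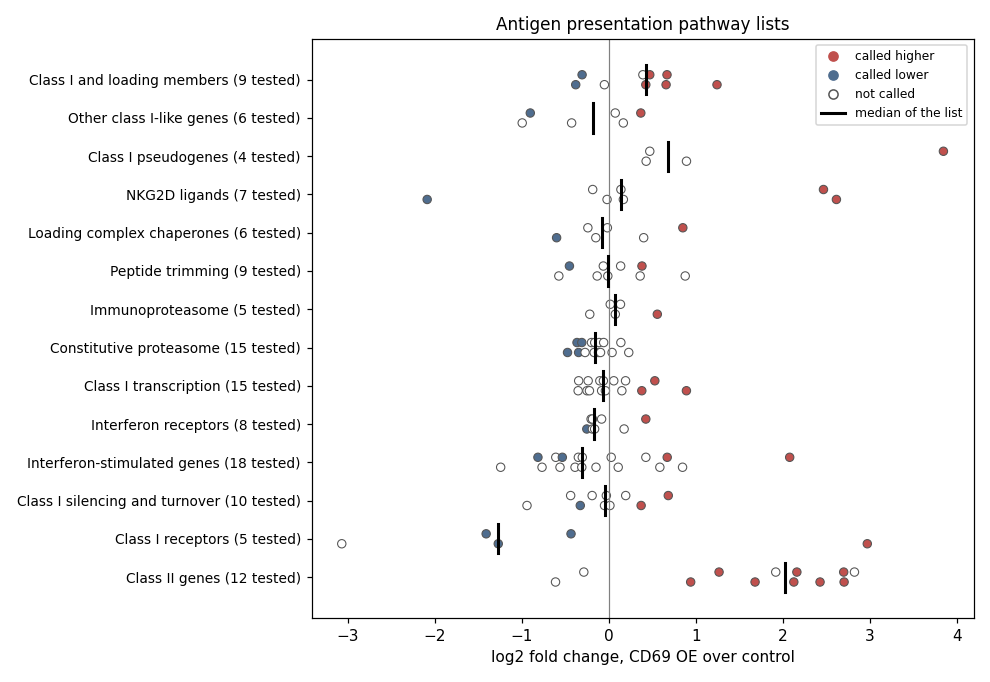
Log2 fold change, CD69 overexpression over control (horizontal axis), of each tested gene of the antigen presentation lists, 1 row per list with its median as a bar and filled circles for genes called higher (red) or lower (blue). The 9 class I and loading genes have a median of 0.42, the interferon-stimulated genes of -0.31, and the class II genes of 2.02.

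Of 10 genes that silence class I transcription or remove class I proteins, 2 were higher, 1 lower and 7 not called. The shares over all tested genes were 14.2% higher and 9.94% lower. TMEM127, an adaptor for class I breakdown, rose by 0.37 (SE 0.06; edgeR quasi-likelihood test, adjusted p = 0.00498), and the ubiquitin ligase MARCHF9 rose by 0.68 (SE 0.13; adjusted p = 0.00913). EZH2, the histone methyltransferase of the Polycomb complex that can silence class I genes, fell by 0.33 (SE 0.06; adjusted p = 0.00556). EZH2 was at 125, 130.4 and 130.1 CPM in the overexpressing libraries, against 165, 156 and 163 CPM in the controls.

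Relatives of the class I heavy chains moved singly. Of 6 tested class I-like genes, CD1D, which presents lipids, fell by 0.90 (SE 0.15; edgeR quasi-likelihood test, adjusted p = 0.00383). PROCR, the receptor of activated protein C, rose by 0.37 (adjusted p = 0.0206, and between 0.0566 and 0.0996 without any 1 library other than control replicate 3). HLA-G was listed at 0 in every library. Of 4 tested class I pseudogenes 1 was higher, where 14.2% of all tested genes were. HLA-K was at 5.32, 3.78 and 4.76 CPM in the overexpressing libraries, against 0.321, 0.335 and 0.303 CPM in the controls. Its log2 fold change was 3.84 (SE 0.24; adjusted p = 5.77e-05). HLA-H, at 6.85, 5.69 and 7.11 CPM against 4.23, 4.48 and 5.48 CPM in the controls, did not pass (log2 fold change 0.47, adjusted p = 0.0923). Pseudogenes resemble the working heavy chain genes, so how reads were split between them is uncertain.

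Together the 13 lists hold 120 tested genes, of which 24 were called higher and 15 lower, with a median log2 fold change of -0.05. The share called higher was 14.2% over all tested genes, and the share called lower 9.94%. Counted without overexpressing replicate 1, 21 were higher and 14 lower, and with overexpressing replicate 1 alone 8 and 3. Part of the counts is uncertain for PSMB9, which shares 174 bases of exon on its strand with PSMB8-AS1, and for TAP1, PSMB9, PDIA3, PSME3, NFYA, LNPEP, PROCR, GBP5 and HLA-K, whose exons overlap those of a gene on the other strand.

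Position was examined because 7 of the 9 genes lie on chromosome 6, within 3.59 Mb between HLA-F and TAPBP. The 81 other coding genes of at least 5 CPM in that span had a median of -0.02 on the log2 fold change scale. Of these, 11 were higher (13.6%) and 14 lower (17.3%). The 524 such genes of the whole chromosome had a median of -0.07, and 131 were higher (25%) and 151 lower (28.8%). Over all 10248 coding genes of at least 5 CPM, 17.9% were higher and 15.6% lower. Within 250 kb of the start of HLA-C, leaving out HLA-B, 4 such genes were measured, of which TCF19 and CCHCR1 were lower (log2 fold changes of -0.25 and -0.32) and MICA and MICB did not pass. Near HLA-E 13 were measured, of which GNL1 was higher (log2 fold change 0.32) and 3 were lower.

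Around B2M on chromosome 15 the measured neighbours were below 0. Within 250 kb of its start, EIF3J fell by 0.72 (SE 0.06; edgeR quasi-likelihood test, adjusted p = 0.000165) and SPG11 fell by 0.49 (SE 0.13; adjusted p = 0.0314), while TRIM69 had a log2 fold change of -0.30 (adjusted p = 0.0978). Within 1 Mb, 10 of 14 genes were lower and 0 higher, with a median of -0.58, and within 2 Mb 16 of 27 were lower and 0 higher, with a median of -0.40. The 1 Mb and 2 Mb windows were chosen after these values were seen. The loading chaperone PDIA3 lies 965 kb from B2M, inside the smaller of these windows. Over the 347 such genes of chromosome 15 the median was 0.10. Of these, 28.0% were higher and 21.9% lower, against 17.9% and 15.6% over all such genes. Around NLRC5 on chromosome 16, 4 genes were measured within 250 kb, of which CPNE2 was higher (log2 fold change 0.41, adjusted p = 0.00439).

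**Figure D5:**
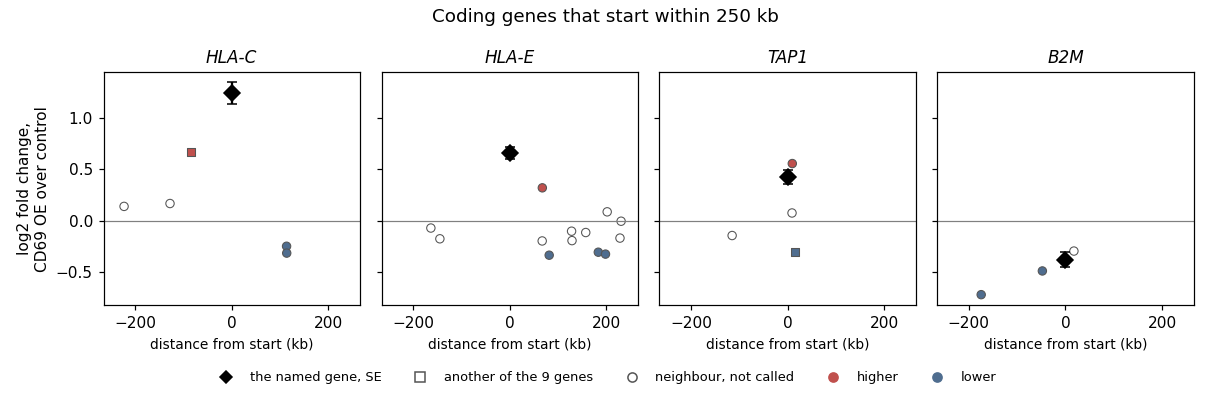
Log2 fold change, CD69 overexpression over control (vertical axis), of coding genes of at least 5 CPM whose starts lie within 250 kb of HLA-C, HLA-E, TAP1 or B2M, against distance from that gene's start in kb. Diamonds with SE bars are the named gene, squares others of the 9 genes, and circles other genes, filled where called. HLA-C and HLA-E stand above their other neighbours, whereas B2M lies among neighbours that are also below 0.

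Genes whose level followed most nearly the same pattern were ranked among 10240 coding genes of at least 5 CPM by Euclidean distance between log2 CPM profiles over the 6 libraries, each centred on its mean. Nearest to HLA-B were SPON2 (distance 0.05), TMEM219 and TBCC. Nearest to B2M were MMADHC (distance 0.04), RAN and PTMA. Nearest to NLRC5 were FBXL5 (distance 0.06), IGHMBP2 and DCAF6. SPON2, for example, was at 48.1, 45.7 and 54.1 CPM in the overexpressing libraries, against 29.8, 29.0 and 35.5 CPM in the controls. Its log2 fold change was 0.65, close to the 0.67 of HLA-B.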

How the data were processed

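Poly(A) RNA of NB4 cells was made into strand-specific libraries and read in pairs of 150 bases, per the labels' protocols. The authors deposited 1 table of gene counts, for which the submitters' processing notes name fastp, FastQC, STAR, featureCounts (Subread) and GRCh38 (hg38). Their versions, the annotation release, whether counting used strand and what was counted are not given in the sources used here. Deposited values are handled as estimated counts; all were whole, so rounding had no effect. In control replicate 1, 1496 genes held exactly 4 counts and 777 held 3, and all libraries showed this excess, so a fragment may have been entered as about 4 counts, which would put the depth below these totals.

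Genes passing edgeR's filterByExpr (19485) were given TMM factors and tested two-sided by quasi-likelihood (edgeR 4.0.16 in R 4.3.3). Adjusted p is Benjamini-Hochberg over all tested genes, with a threshold of 0.05. SE is the fold change divided by the root of F. The script was tested on simulated data. Levels are CPM with TMM factors; CPM per kb divides by the median length of the gene's consensus coding transcripts in GENCODE, which also gave positions and exon overlaps. Alternatives were other scalings, other filters, counts divided by 4, DESeq2 1.42.0, limma-voom (limma 3.58.1), glmTreat against a fold of 1.2, a replicate block, overexpressing replicate 1 alone, and each library left out. Besides the 9 genes and CD69, the text names up to 4 called genes of each of 13 lists with the smallest p, and the 3 nearest profiles of HLA-B, B2M and NLRC5; other genes were chosen after their values were seen. The members and lists were chosen with earlier results of these data known. With counts divided by 4, libraries of a group differed by more than sampling noise (chi-square over degrees of freedom from 2.36 to 14.1). Replicate numbers were not taken as pairs, and the sample titles do not say whether the libraries were paired. Figures were drawn with matplotlib 3.10.9.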

Additional observations from a re-analysis of the deposited data

How the results depend on the processing

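Of the 9 genes, HLA-C and HLA-E kept their calls under all 18 alternatives, and HLA-B, TAP1 and NLRC5 under all but overexpressing replicate 1 alone (adjusted p = 0.0698, 0.123 and 0.0934), which leaves 1 library in the group and assumes that it varies like the controls. B2M lost its call there (0.0672) and with glmTreat (0.111). TAP2 lost its call there (0.359), with glmTreat (0.380) and without a filter on low counts (0.0543), besides the left-out libraries given above. TAPBP ran from -0.105 to 0.016 with 1 library left out, above 0 only without control replicate 3, and was not called in any fit. With overexpressing replicate 1 alone, 2 of the 9 genes were called higher and 0 lower. No filter left 1 lower and glmTreat 0. Leaving out 1 library left 5 higher in each case and 1 to 2 lower. Over all genes glmTreat called 1723 higher and 874 lower, replicate 1 alone 797 and 380, and single libraries left out 1783 to 2917 higher and 1137 to 2226 lower, the lowest of each without overexpressing replicate 2 (lower: 1227 without control replicate 1, 1287 without control replicate 2). Of the list genes, glmTreat called 14 higher and 6 lower, replicate 1 alone 8 and 3, DESeq2 23 lower, and single libraries left out 15 to 21 higher and 7 to 18 lower (15 higher and 7 lower without overexpressing replicate 2, 15 higher without control replicate 1). The causes were not tested. No scaling moved the median of all genes by over 0.1. PSMB9 lost its call with RLE or upper-quartile factors (adjusted p = 0.0547 and 0.0553), IFNGR1 without factors (0.0594), and 7 named list genes without a filter: IFIT1, IFNGR1, JAK2, PSMB1, PSMB9, RAET1E and STAT2 (0.0503 to 0.0989).

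With the replicate number as a block, 5 of the 9 genes were higher and 2 lower, and 28 list genes were higher and 28 lower. Over all genes the block gave 3194 higher and 2669 lower, against 2767 and 1937 without it. Deviations of same-numbered libraries correlated at -0.0331, 0.0520 and 0.0714, so the numbers were not taken as pairs. Depth limits HLA-F most of the 9 genes, with 58 to 133 counts per library.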

Other observations

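Class II genes serve to present peptides from outside the cell. Of 12 tested, 8 were higher and 0 lower, with a median log2 fold change of 2.02. The shares over all tested genes were 14.2% higher and 9.94% lower. HLA-DRB1, a chain of the HLA-DR molecule, was at 12.5, 15.1 and 16.4 CPM in the overexpressing libraries, against 2.12, 2.29 and 2.37 CPM in the controls (log2 fold change 2.70, SE 0.16; edgeR quasi-likelihood test, adjusted p = 4.32e-05). CIITA, the class II transactivator, was at 18.1, 25.8 and 22.3 CPM in the overexpressing libraries, against 4.23, 5.54 and 5.05 CPM in the controls (log2 fold change 2.16, SE 0.17; adjusted p = 0.000143), though it shares 2378 bases of exon with AC133065.3. Both were called under all 18 alternatives. HLA-DRA was at 7.05, 22.9 and 21.5 CPM in the overexpressing libraries, against 2.84, 3.37 and 1.70 CPM in the controls (log2 fold change 2.70, SE 0.46; edgeR quasi-likelihood test, adjusted p = 0.00498, and 0.0942 with overexpressing replicate 1 alone). For HLA-DRA, replicate 1 lay between the controls and the other overexpressing libraries, nearer to the controls. For HLA-DRB1, CIITA and HLA-DOB it lay nearer to its own group. HLA-DMA, also called higher, was at 4.62, 5.85 and 8.46 CPM in the overexpressing libraries, against 3.25, 3.33 and 3.28 CPM in the controls. For HLA-DPA1, HLA-DMB and HLA-DPB1, also called higher, replicate 1 lay nearer to the controls. HLA-DPA1 was at 2.11, 8.09 and 9.70 CPM in the overexpressing libraries, against 1.04, 1.41 and 1.25 CPM in the controls. HLA-DMB was at 0.82, 4.15 and 2.96 CPM, against 0.46, 0.58 and 0.77 CPM. HLA-DPB1 was at 0.73, 2.57 and 2.17 CPM, against 0.59, 0.69 and 0.43 CPM. The B cell marker sums were 21.9, 90.4 and 87.5 CPM, against 18.8, 15.5 and 13.6 CPM in the controls. The part of those cells in the class II values was not tested. HLA-DOB, a class II chain that tempers peptide exchange, rose by 1.27 (SE 0.23; adjusted p = 0.00585), though 599 bases of its exons are shared with AL669918.1. The invariant chain CD74 had a log2 fold change of -0.29 and did not pass (adjusted p = 0.160).

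Some receptors that read class I and some ligands that mark stressed cells also moved. Of 5 tested class I receptors, LILRA1 and LILRB1, leukocyte immunoglobulin-like receptors, fell by 1.41 (SE 0.15; edgeR quasi-likelihood test, adjusted p = 0.000623) and 1.27 (SE 0.18; adjusted p = 0.00185). LILRB1 was at 2.78, 2.96 and 2.25 CPM in the overexpressing libraries, against 6.78, 6.51 and 6.01 CPM in the controls. LILRB2 fell by 0.43, a call lost when any 1 library was left out (adjusted p between 0.0648 and 0.0886). CD160 rose by 2.97 (SE 0.23; adjusted p = 0.000140), at 4.09, 4.97 and 3.64 CPM in the overexpressing libraries, against 0.482, 0.599 and 0.535 CPM in the controls. Of 7 tested ligands of the activating receptor NKG2D, 2 were higher, 1 lower and 4 not called. Over all tested genes, 14.2% were called higher and 9.94% lower. ULBP1 rose by 2.61 (SE 0.34; adjusted p = 0.00140) and ULBP2 by 2.47 (SE 0.36; adjusted p = 0.00229), both below 4 CPM. MICB and MICA averaged 34.8 and 9.68 CPM in the overexpressing libraries, against 31.6 and 8.62 CPM in the controls. Neither was called (adjusted p = 0.206 and 0.390). RAET1E, which shares 1050 bases of exon with AL355312.5, fell by 2.09 (adjusted p = 0.0314, and between 0.0621 and 0.142 without overexpressing replicate 2 or 3 or control replicate 1 or 2).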
